A study of Mus musculus with 96 samples.

Results

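The primitive streak is the furrow of the gastrulating embryo through which epiblast cells pass to become mesoderm and definitive endoderm. Wnt3, a secreted signal of the canonical Wnt pathway, is needed for the streak to form, and T (brachyury), Eomes, Mixl1, Gsc and Evx1 are transcription factors that cells switch on as they enter it. Mesp1, Tbx6 and Msgn1 follow in the nascent mesoderm, Mesp1 in precursors of the heart and Tbx6 and Msgn1 in the paraxial mesoderm that gives rise to somites. In mouse embryonic stem cells (ESCs) kept in LIF these genes are held low, and many of their promoters are textbook Polycomb targets that carry H3K4me3 together with Polycomb marks.

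These 9 genes were taken by symbol out of the 37620 genes in each of the study's 7 RNA-seq count tables. The study examined RYBP, a subunit of the Polycomb repressive complex PRC1, together with WDR5, a subunit of H3K4 methyltransferase complexes, and STAT3, the transcription factor that acts downstream of LIF. Every RNA-seq comparison set 2 libraries against 2 libraries within its own table. The ESCs were grown in medium with LIF.

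In R1 ESCs, an empty-vector control (shEV) was compared with knockdown of Rybp (shRybp) and with knockdown of Wdr5 (shWdr5). In R7.15 ESCs, control cells (Rybp+/+) were compared with Rybp-/- cells, in which the floxed Rybp alleles had been deleted by 5 µM 4-OHT over 4 days. The labels give no 4-OHT for the Rybp+/+ cells, so the drug and the deletion cannot be told apart in that comparison. WT ESC of the R1 line were compared with cells carrying a TF-AA mutation, a name that the labels do not explain. Also in R7.15, cells with RYBPfl/fl, Rosa26::CreERT2 and 4-OHT in both groups carried either overexpressed wild-type RYBP (WT.RYBP) or the RYBP.21aa deletion (RYBP phase disruption). J1 cells with Tet on.RYBP received vehicle or DOX, and rTRS cells, whose genotype label is DOX-induced Rybp_Stat3 integration, were labelled NTC or DOX. The second DOX column of the rTRS counts is headed S5-DOX_R2, with a prefix that no label holds. It was placed in the DOX group by its heading alone, and all rTRS results below rest on this placement. ChIP-seq peaks came from R7.15 cells (H3K4me3, H3K27ac, WDR5 and STAT3 in Rybp+/+ and Rybp-/- cells), from R1 cells with shEV or shStat3 (RING1B, the catalytic subunit of PRC1) and from R1 cells named Tet.Rybp.Stat3 without and with DOX (RING1B and STAT3), DOX- and DOX+ below. Nothing in the labels says that libraries of a group came from separate cultures, so the p-values measure the spread between these libraries, which may be technical. Each library is a bulk sample, in which fewer cells expressing a gene and less RNA of it per cell cannot be told apart.

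Reads counted on genes ran from 14512857 to 81049618 per library, so that 3 reads were worth 0.0373 to 0.204 CPM, a gene's reads as a share of its library scaled to a fixed total, which is the unit of all levels here. The shRybp and shWdr5 tables hold the same 2 shEV libraries. Their totals in the shWdr5 table were 0.509 and 0.506 of those in the shRybp table, with a correlation of 0.9999 over 11577 genes, so the controls of these comparisons are shared and the results are given side by side only. Rybp fell from 86.0 to 36.2 CPM with shRybp and from 110.3 to 24.9 CPM in Rybp-/- cells, Wdr5 fell from 346.4 to 59.1 CPM with shWdr5, and Rybp rose from 140.2 to 528.2 CPM with DOX in Tet on.RYBP cells. Each knockdown also changed the target of the other. Wdr5 fell from 368 to 262.3 CPM with shRybp, and Rybp rose from 80.6 to 118.7 CPM with shWdr5. In rTRS cells the genes of the label showed small changes of opposite sign. Rybp was at 111.9 CPM in the NTC libraries and 100.8 CPM in the libraries labelled DOX (log2 fold change -0.15 ± 0.06, adjusted p = 0.0762), whereas Stat3 rose from 165.6 to 189.7 CPM, by 0.20 on the log2 scale (adjusted p = 0.0259). Stat3 was also called higher with shRybp (0.16) and in Rybp-/- cells (0.11), and lower in phase disruption cells (-0.27), although it was not targeted there. In the phase disruption comparison, Rybp reads, which include those of the introduced copies, fell from 751.4 to 643.9 CPM.

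Summed over the 9 ESC markers used to check the cell type (Pou5f1, Sox2, Nanog, Klf4, Esrrb, Tfcp2l1, Zfp42, Dppa5a and Tdgf1), every library held between 4033 and 8147 CPM, against 6.02 to 94.0 CPM summed over the 9 streak genes. The ESC marker sum was lowest in the rTRS libraries labelled DOX, at 4033 to 4214 CPM against 6542 to 6715 CPM in the NTC libraries.

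The 9 genes lie on 7 autosomes of the mm9 genome. Wnt3 spans chr11:103635464-103679271 and Tbx6 spans chr7:133924997-133929074, both on the plus strand, and Gsc lies at chr12:105709419-105711537 on the minus strand. Promoter windows of 250 bases before and 50 bases after the start site, from RefSeq (GRCm38.p6), were at hand for 8 of the 9 genes, Mixl1 excepted, and were placed in mm9 by exact match. The bases of these windows that lie upstream of any annotated exon are shown for Wnt3 (chr11:103635239-103635463), Gsc (chr12:105711538-105711696) and Tbx6 (chr7:133924747-133924996), because RING1B peaks covered the Wnt3 and Gsc promoters in every RING1B list and the Tbx6 promoter in none. Each is written 5′ to 3′ on the strand of the gene, with CG dinucleotides in capitals.
Wnt3: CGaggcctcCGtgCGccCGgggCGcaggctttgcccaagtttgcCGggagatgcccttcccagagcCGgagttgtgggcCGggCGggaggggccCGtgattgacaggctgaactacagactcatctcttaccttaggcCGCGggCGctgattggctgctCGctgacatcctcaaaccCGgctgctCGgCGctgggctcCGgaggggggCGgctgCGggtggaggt
Gsc: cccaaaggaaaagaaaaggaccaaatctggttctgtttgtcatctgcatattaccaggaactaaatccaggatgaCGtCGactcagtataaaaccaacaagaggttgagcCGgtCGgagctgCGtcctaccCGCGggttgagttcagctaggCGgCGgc
Tbx6: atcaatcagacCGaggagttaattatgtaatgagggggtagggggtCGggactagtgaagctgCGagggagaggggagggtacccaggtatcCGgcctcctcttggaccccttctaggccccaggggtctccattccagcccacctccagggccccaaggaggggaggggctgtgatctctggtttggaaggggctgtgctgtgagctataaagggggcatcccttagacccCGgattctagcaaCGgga

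Over the whole 300-base windows, Gsc held 25 CG dinucleotides, Wnt3 24, T 17, Evx1 12, Eomes 10, Tbx6 7, and Mesp1 and Msgn1 4 each. The median over all RefSeq windows was 7, and 80.0% of them held fewer than Wnt3. Tbx6 thus sat at the median, while Mesp1, which carried RING1B peaks in every list, lay below it.

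Wnt signals reach their target genes through TCF/LEF factors bound to β-catenin, and STAT3 binds palindromic sites. On both strands of the windows, CTTTGAT occurred in 2 of the 8 genes (Mesp1 and Msgn1) and in 3.73% of 32851 windows, and CTTTGAA in 3 of 8 (T, Mesp1 and Msgn1) and in 5.13% of windows. The STAT letters TTCNNNGAA were found for T alone (8.30% of windows) and the T-box letters AGGTGTGA for Mesp1 alone (1.27% of windows). These motifs do not overlap each other in the windows of the 8 genes. The sites are given with 10 bases on either side, 5′ to 3′ on the strand of the gene, with the motif or its reverse complement in capitals, because TCF/LEF and STAT sites are the textbook end points of Wnt and LIF signalling. They lie at chr17:8627043-8627069 and chr17:8627299-8627327 (T, plus strand), chr7:86938533-86938559 and chr7:86938491-86938517 (Mesp1, minus strand, inside the first exon of the mm9 gene model) and chr12:11215941-11215967 and chr12:11215881-11215907 (Msgn1, minus strand). The STAT letters of T lie 22 to 30 bases after its start site, in the first exon. A match describes letters only and is no evidence of binding.
T, CTTTGAA: tgctcggtacTTCAAAGggtgtcccgc
T, TTCNNNGAA: gtgaccctttTTCTTGGAAaagcggtggc
Mesp1, CTTTGAA: cctgctatggTTCAAAGggttcaggcc
Mesp1, CTTTGAT: ctcgagccggCTTTGATatgctgatga
Msgn1, CTTTGAT: gatgctaattATCAAAGaggggaaagt
Msgn1, CTTTGAA: ttggttcttcCTTTGAActccctccac

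Levels of different genes were compared per kilobase of gene length, in the control libraries of each table (the Tet on.RYBP table came without lengths). Eomes stood first in 4 of 6 tables, of which the shRybp and shWdr5 tables hold the same shEV libraries. It was at 3.30 to 3.88 CPM per kb in shEV (shRybp table), 2.23 to 2.29 in WT ESC and 2.22 to 2.64 in rTRS NTC libraries, above the next gene in each. In Rybp+/+ cells Tbx6 led at 0.938 to 1.20 CPM per kb, overlapping Eomes at 0.864 to 0.946. In WT.RYBP cells T led at 6.63 to 8.62 CPM per kb, above Eomes at 2.66 to 3.50, whereas T reached at most 0.675 CPM per kb in the controls of the other 5 tables. These levels set libraries of different tables and lines side by side and were not tested. Msgn1 was at or near 0 throughout, with 0 to 4 reads in any library.

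**Figure D1:**
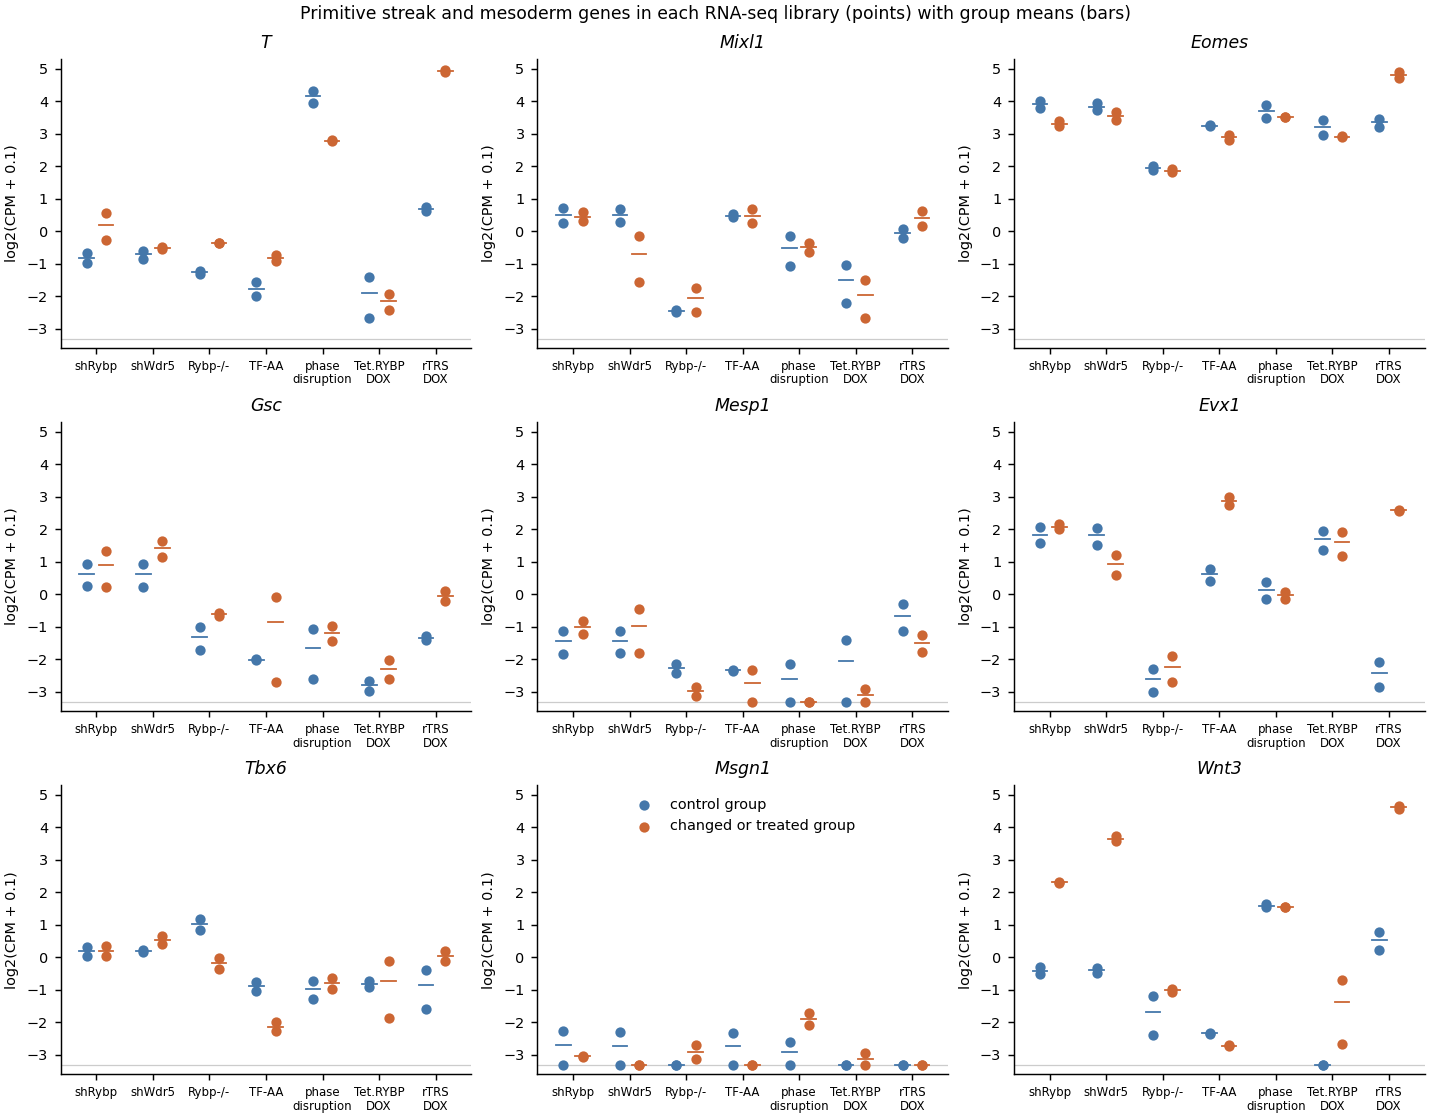
Level of each streak or mesoderm gene in every RNA-seq library, as log2(CPM + 0.1), with 1 panel per gene and the 7 comparisons along the x axis. Blue points are control libraries, orange points changed or treated libraries, horizontal bars group means, and the grey line marks 0 CPM; Wnt3 stands clear of its controls with shRybp, shWdr5 and in rTRS libraries labelled DOX, and Msgn1 stays near the grey line.

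A gene is called higher or lower at a Benjamini-Hochberg adjusted p under 0.05 by the quasi-likelihood test of edgeR, adjusted over all genes tested in its table. Values after ± are standard errors of the log2 fold change, with 2 libraries in each group. With shRybp, 8 of the 9 genes had enough reads to be tested. Wnt3 was higher (1 of 8, against 26.8% of all tested genes) and Eomes was lower (1 of 8, against 26.0%). With shWdr5, 7 genes were tested, and 2 were higher (Wnt3 and Gsc, against 31.5% of all genes) and 3 lower (Eomes, Mixl1 and Evx1, against 31.5%). Neither knockdown table had a larger share of members called higher than of all genes, and these counts are no result about the 9 genes as a group. In Rybp-/- cells none of the 5 tested genes was called higher (22.8% of all genes were) and Tbx6 was lower (22.7%). DESeq2 called none higher either, and 1 gene (T) was higher at an unadjusted p under 0.05.

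In TF-AA mutation cells 3 genes were tested, and Evx1 was higher (1 of 3, against 14.4%) while none was called lower (16.1%), with 1 gene (Eomes) at an unadjusted p under 0.05 and none by DESeq2. In RYBP phase disruption cells 5 genes were tested, none was higher (16.1% of all genes, and none at an unadjusted p under 0.05 or by DESeq2) and T was lower (1 of 5, against 17.0%). With DOX in Tet on.RYBP cells, 3 genes were tested and none was called in either direction (3.63% of all genes were higher and 2.39% lower), none at an unadjusted p under 0.05 and none by DESeq2. In the rTRS libraries labelled DOX, 8 genes were tested, and 5 were higher (T, Eomes, Gsc, Evx1 and Wnt3, against 23.0%) and none lower (20.4%, and none at an unadjusted p under 0.05 or by DESeq2). Of these, Evx1 had enough reads for the test only through the libraries labelled DOX. Only Eomes could be tested in all 7 comparisons, and Msgn1 in none. Over the 63 pairs of gene and comparison, 39 were tested, 9 called higher and 6 lower.

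**Figure D2:**
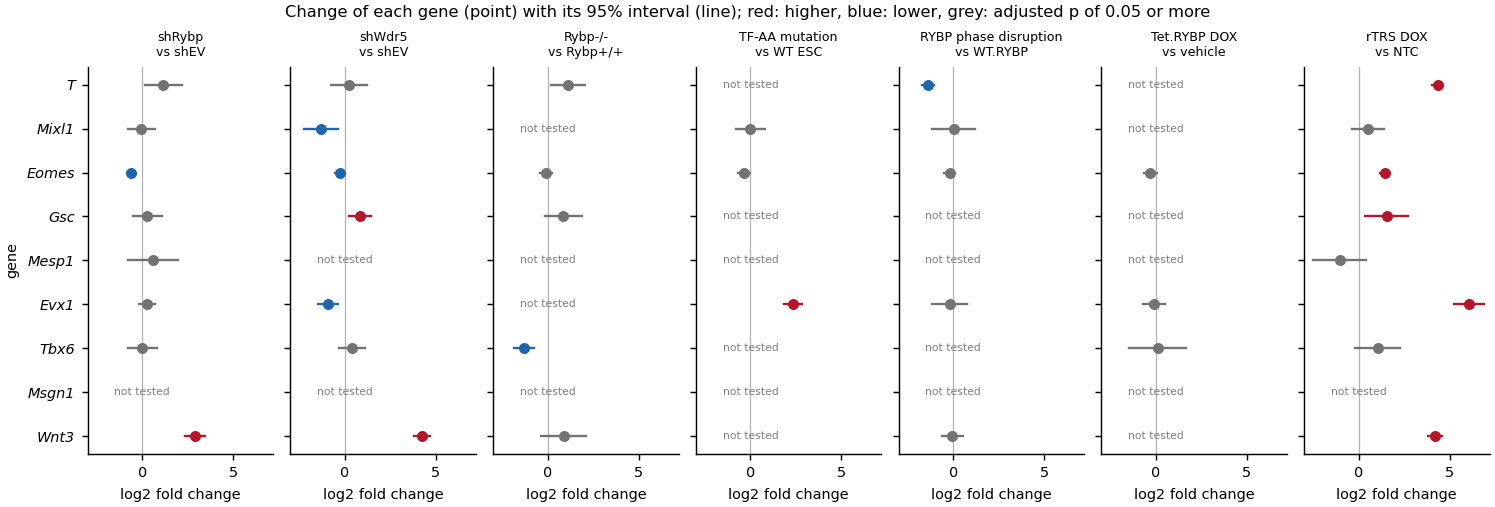
Log2 fold change of each gene (rows) in each of the 7 comparisons (panels), with its 95% interval as a line. Red points were called higher, blue points lower and grey points neither, at an adjusted p of 0.05; the 3 largest Wnt3 changes, from 2.88 to 4.24, and the T and Evx1 changes of 4.34 and 6.06 in rTRS libraries labelled DOX lie far to the right.

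Wnt3, the ligand of the group, was the gene called most often in 1 direction, higher in 3 comparisons of the 5 in which it was tested. Its shEV levels in the shRybp table were 0.708 and 0.598 CPM, and with shRybp it reached 4.87 and 4.82 CPM. The knockdown libraries lay well above the controls and close to each other. This was a log2 fold change of 2.88 ± 0.26 (SE), or 7.38-fold (adjusted p = 2.72e-08). With shWdr5 the levels were 13.2 and 11.8 CPM, against 0.702 and 0.607 CPM for the same shEV libraries in that table. The groups again did not overlap, and the log2 fold change was 4.24 ± 0.21, or 18.9-fold (adjusted p = 4.05e-14). In rTRS cells Wnt3 stood at 1.62 and 1.06 CPM in the NTC libraries and 23.7 and 25.4 CPM in the libraries labelled DOX, a log2 fold change of 4.20 ± 0.18 (adjusted p = 1.88e-09).

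Deletion of Rybp gave less clear values. The Rybp+/+ libraries differed from each other, at 0.0891 and 0.336 CPM (7 and 27 reads), and the Rybp-/- libraries held 0.381 and 0.403 CPM (29 and 31 reads). Both Rybp-/- libraries lay above both controls, but the log2 fold change of 0.88 ± 0.61 did not pass the test (adjusted p = 0.252). Without the second Rybp+/+ library it was 2.11 (adjusted p = 0.0496, over a range of 0.0496 to 0.835 across 8 alternatives), so this call turned on 1 library. In WT.RYBP and RYBP phase disruption cells Wnt3 was nearly level, at 2.83 and 3.00 CPM against 2.85 and 2.82 CPM (log2 fold change -0.04, 95% interval -0.61 to 0.54). In Tet on.RYBP cells no Wnt3 read was counted in either vehicle library, which allows up to 0.0831 and 0.0869 CPM, and 16 and 2 reads were counted with DOX. WT ESC held 2 reads in each library and TF-AA mutation cells 1 read in each.

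T, the founding T-box factor, was called in opposite directions in 2 comparisons. In rTRS cells it was at 1.45 and 1.56 CPM in the NTC libraries and at 31.2 and 29.9 CPM in the libraries labelled DOX. The groups were far apart and tight within themselves, with a log2 fold change of 4.34 ± 0.14, or 20.2-fold (adjusted p = 1.65e-10). In the phase disruption comparison, where T started from the highest control level of any table, it fell from 15.4 and 20.0 CPM in WT.RYBP cells to 6.72 and 6.86 CPM. That was a log2 fold change of -1.38 ± 0.15 (adjusted p = 7.09e-09), and T was called lower in each of 8 alternatives, with values from -1.56 to -1.18.

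With shRybp, T stood at 0.531 and 0.408 CPM in the controls and at 1.36 and 0.736 CPM after knockdown. The knockdown libraries were both above the controls but far from each other, and the log2 fold change of 1.16 ± 0.48 fell just short of the threshold (adjusted p = 0.0505). It passed in 4 of 9 alternatives, whose adjusted p ran from 0.0307 to 0.553, among them without the first shEV library (0.043) and without the second shRybp library (0.0465). In Rybp-/- cells T was at 0.670 and 0.676 CPM, against 0.331 and 0.298 CPM in Rybp+/+ cells. These libraries too were both above their controls, with a log2 fold change of 1.09 ± 0.46 (adjusted p = 0.0501), and none of 8 alternatives passed (0.0501 to 0.175). With shWdr5 T was not called, at 0.608 and 0.576 CPM against 0.561 and 0.456 CPM (log2 fold change 0.21, 95% interval -0.79 to 1.22). It was too low to test in the TF-AA and Tet on.RYBP tables, where it had 5 and 3 reads against 10 and 8, and 10 and 2 reads against 5 and 3.

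Eomes, a T-box factor of mesoderm, definitive endoderm and trophoblast, was the only gene high enough for a test everywhere. In the rTRS table it was at 11.0 and 9.21 CPM in the NTC libraries and 29.8 and 26.0 CPM in the libraries labelled DOX. It rose by a log2 fold change of 1.47 ± 0.12 (adjusted p = 9.16e-07). With shRybp it went the other way, from 13.7 and 16.1 CPM to 9.26 and 10.3 CPM. Every knockdown library lay below every control, a log2 fold change of -0.61 ± 0.12 (adjusted p = 0.000241) that was called in all 9 alternatives. The direction was thus opposite to that of Wnt3 in the same libraries.

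With shWdr5 Eomes was lower by less, at 10.7 and 12.5 CPM against 13.1 and 15.3 CPM (log2 fold change -0.29 ± 0.12, adjusted p = 0.0352). DESeq2 did not call it (adjusted p = 0.233, over a range of 0.00562 to 0.279 across 8 alternatives), nor did edgeR without the second shEV library or without the first shWdr5 library (-0.18 in both). In TF-AA mutation cells both libraries (6.91 and 7.69 CPM) lay below WT ESC (9.50 and 9.29 CPM), with a log2 fold change of -0.37 ± 0.16 that did not pass (adjusted p = 0.0924). The remaining log2 fold changes were -0.09 in Rybp-/- cells, -0.18 in phase disruption cells and -0.31 with DOX in Tet on.RYBP cells, none of them called. Over the 7 comparisons, the genes whose log2 fold changes followed those of Eomes most closely among 11614 genes were Mtss1l (Pearson r = 0.987), Peg10 (0.977) and Cttn (0.976). This is a description over 7 points, of which the shRybp and shWdr5 values share their controls. The Eomes value of the rTRS table (1.47) stands far from all the others (-0.61 to -0.09), so these correlations lean mainly on that point.

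Tbx6, the T-box factor of paraxial mesoderm, was called once. In Rybp+/+ cells, where it was among the highest of the 9 genes per kilobase, it stood at 1.69 and 2.16 CPM (133 and 174 reads), and in Rybp-/- cells at 0.683 and 0.884 CPM (52 and 68 reads). The groups did not overlap, and Tbx6 fell by 1.3 on the log2 scale (SE 0.27, adjusted p = 0.000158), a call made in all 8 alternatives. With shRybp in R1 cells it was flat, at 0.924 and 1.16 CPM against 0.936 and 1.14 CPM (log2 fold change 0, 95% interval -0.81 to 0.82). The difference between the lines was not tested. In the rTRS table the NTC libraries were 0.235 and 0.670 CPM and the libraries labelled DOX 0.828 and 1.04 CPM, a log2 fold change of 1.04 ± 0.57 (adjusted p = 0.16). The test passed only without the second NTC library (1.98, adjusted p = 0.0367, in a range of 0.0367 to 0.601 over 8 alternatives). In TF-AA mutation cells Tbx6 had 3 and 2 reads against 8 and 10 in WT ESC, too few for the test.

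Evx1, a homeobox factor of the posterior streak, showed the largest change of all 9 genes. The rTRS NTC libraries held 7 and 2 reads (0.137 and 0.0372 CPM) and the libraries labelled DOX 304 and 302 reads (5.85 and 5.93 CPM). The log2 fold change was 6.06 ± 0.39 (95% interval 5.22 to 6.90, adjusted p = 7.77e-08), a size that rests on few control reads and ran from 5.40 to 7.22 over 8 alternatives. Evx1 passed the filter on low counts only through the libraries labelled DOX, where it is high, so this call is a description. In TF-AA mutation cells Evx1 rose from 1.62 and 1.24 CPM to 7.90 and 6.67 CPM. No library of one group reached the other, and the log2 fold change was 2.34 ± 0.25, or 5.08-fold (adjusted p = 9.98e-08). With shWdr5 it was lower, at 2.20 and 1.39 CPM against 4.02 and 2.78 CPM (log2 fold change -0.92 ± 0.27, adjusted p = 0.00461). That call was lost without the first shEV library, without the second shWdr5 library and with DESeq2 (adjusted p = 0.0693, over a range of 0.000126 to 0.0909).

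With shRybp Evx1 was at 4.33 and 3.92 CPM against 4.10 and 2.85 CPM and was not called (log2 fold change 0.25 ± 0.21), and Tet on.RYBP and phase disruption cells gave -0.10 and -0.19. R7.15 Rybp+/+ and Rybp-/- cells held only 2 to 13 reads of it. On the opposite strand Evx1 overlaps the lincRNA 5730457N03Rik, and the strand used for counting is not given in the sources used here, so reads of the pair cannot be told apart where they overlap. The lincRNA had 0 and 0 reads in the NTC libraries and 34 and 72 in the libraries labelled DOX, and 3 and 6 reads in WT ESC against 16 and 25 in TF-AA mutation cells.

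Gsc, a homeobox factor of the anterior streak and organizer, was called higher in 2 comparisons, neither of which held under all settings. With shWdr5 it was at 2.1 and 3.02 CPM against 1.82 and 1.06 CPM, all knockdown values above the controls (log2 fold change 0.81 ± 0.30, adjusted p = 0.0225). DESeq2 gave an adjusted p of 0.162 (range 0.00247 to 0.241), and the call was lost without the second shEV library (0.49) and without the second shWdr5 library (0.53). In rTRS libraries labelled DOX it was at 0.963 and 0.766 CPM (50 and 39 reads) against 0.313 and 0.279 CPM (16 and 15 reads). The log2 fold change of 1.54 ± 0.55 (adjusted p = 0.0393) stayed between 1.36 and 1.70 but was past the threshold in only 3 of 8 alternatives, whose adjusted p ran from 0.0273 to 0.198. It was lost with DESeq2 and on leaving out any 1 of the 4 libraries. In Rybp-/- cells Gsc stood at 0.526 and 0.572 CPM against 0.204 and 0.398 CPM, without a call (log2 fold change 0.86 ± 0.51, adjusted p = 0.172). TF-AA mutation libraries disagreed with each other, at 17 and 1 reads.

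Mixl1, a paired-type homeobox factor of the streak, was called only with shWdr5. It was at 0.794 and 0.240 CPM (17 and 5 reads) against 1.12 and 1.52 CPM (24 and 30 reads), a log2 fold change of -1.33 ± 0.46 (adjusted p = 0.0146). The second shWdr5 library was far below the first, and without it the log2 fold change was -0.72 (adjusted p = 0.246, the upper end of a range from 0.00236 over 8 alternatives). The call was also lost without the second shEV library (-1.10) and with DESeq2. In the other 4 comparisons that tested it, the log2 fold changes were -0.05 (shRybp), 0 (TF-AA mutation), 0.03 (phase disruption) and 0.52 (rTRS libraries labelled DOX), none of them called. Unlike T, Eomes, Evx1 and Wnt3, Mixl1 was thus not called in the rTRS table, where its levels were 1.43 and 1.02 CPM against 0.939 and 0.763 CPM (95% interval -0.36 to 1.40).

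Mesp1 and Msgn1, basic helix-loop-helix factors of early mesoderm, were mostly under the filter. Mesp1 was tested in 2 comparisons, with shRybp (0.326 and 0.468 CPM against 0.177 and 0.353 CPM, log2 fold change 0.58 ± 0.65) and in rTRS cells (0.193 and 0.314 CPM against 0.704 and 0.354 CPM, log2 fold change -1.05 ± 0.66), and was not called in either. In the rTRS table it was the only one of the 8 tested genes below its controls. In Rybp+/+ cells it had 10 and 7 reads and in Rybp-/- cells 1 and 3 reads, too few for the test. Msgn1, whose mm9 model of 567 bases is a single exon, had at most 4 reads in a library and none in any rTRS library.

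The same libraries were read through a list of 19 other signals of the streak (Nodal, BMP, FGF and Wnt ligands, their inhibitors and effectors) and a list of 24 other streak and early mesoderm genes. Named are at most 3 genes per comparison over both lists together, those with the largest changes among genes called at a mean of at least 1 CPM. The lists were chosen with earlier results of these data known, so their counts are descriptions only. Among the signals, 12 of 18 tested were higher and 4 lower in rTRS libraries labelled DOX (against 23.0% and 20.4% of all genes), with a median log2 fold change of 0.86 against 0 over all genes. Wnt8a (5.47 ± 0.41) and Fgf8 (5.34 ± 0.32), ligands of the posterior streak, and Dkk1 (4.84 ± 0.30), a secreted Wnt inhibitor, changed most by this rule. With shRybp 12 of 19 signals were higher and 3 lower (against 26.8% and 26.0% of all genes), with a median of 0.19 against 0.02, among them Dkk1 (2.81 ± 0.39). With shWdr5 8 of 17 were higher and 7 lower (against 31.5% and 31.5% of all genes, median 0.07 against -0.01), among them Wnt8a (4.07 ± 0.32) and Dkk1 (2.97 ± 0.35).

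In Rybp-/- cells 7 of 19 signals were higher and 5 lower (against 22.8% and 22.7% of all genes, median 0.07 against 0), and Lef1, a nuclear effector of Wnt signalling, fell by 1.75 on the log2 scale (SE 0.08). In TF-AA mutation cells 1 of 16 was higher and 6 lower (against 14.4% and 16.1% of all genes, median -0.09 against 0.01), among them the Nodal inhibitors Lefty1 (-2.03 ± 0.09) and Lefty2 (-1.88 ± 0.08). In phase disruption cells 6 of 18 were higher, among them Wnt3a (1.71 ± 0.47), and 5 lower (against 16.1% and 17.0% of all genes, median -0.01 against 0). With DOX in Tet on.RYBP cells 2 of 17 were higher, among them Lefty1 (1.12 ± 0.12), and 2 lower (against 3.63% and 2.39% of all genes, median 0.04 against 0).

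Of the other streak and early mesoderm genes, 11 of 20 tested were higher and 1 lower with shRybp (26.8% and 26.0% of all genes, median 0.60 against 0.02 over all genes), among them Hand1 (3.44 ± 0.23), a factor of extraembryonic and lateral mesoderm, and Foxa2 (2.22 ± 0.34), a factor of the anterior streak and endoderm. With shWdr5 10 of 15 were higher and 3 lower (31.5% and 31.5% of all genes, median 0.77 against -0.01), among them the organizer gene Lhx1 (4.13 ± 0.50). In Rybp-/- cells 8 of 16 were higher and 3 lower (22.8% and 22.7% of all genes, median 0.63 against 0), with Cdx1 at 2.37 ± 0.19 and Pdgfra at 1.43 ± 0.17. In phase disruption cells 4 of 18 were higher, among them Hand1 (2.68 ± 0.16) and Cyp26a1 (2.35 ± 0.26), an enzyme that breaks down retinoic acid, and 4 lower (16.1% and 17.0% of all genes, median 0.17 against 0). TF-AA mutation cells had 3 of 11 higher, with Mesp2 at 1.63 ± 0.37, and 2 lower (14.4% and 16.1% of all genes, median 0.32 against 0.01). Tet on.RYBP cells with DOX had 2 of 13 higher, Dll1 (1.57 ± 0.33) and Kdr (1.36 ± 0.23), and 1 lower (3.63% and 2.39% of all genes, median -0.13 against 0). In rTRS libraries labelled DOX 8 of 15 were higher and 2 lower (23.0% and 20.4% of all genes, median 0.41 against 0).

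Markers of other cell types moved in the same libraries. The shares of all tested genes called higher and lower, to set beside these counts, were 23.0% and 20.4% in the rTRS table, 26.8% and 26.0% with shRybp, 31.5% and 31.5% with shWdr5, 22.8% and 22.7% in Rybp-/-, 14.4% and 16.1% in TF-AA mutation, 16.1% and 17.0% in phase disruption and 3.63% and 2.39% in Tet on.RYBP cells. In rTRS libraries labelled DOX, 6 of 8 tested trophectoderm markers were higher and none lower, and their summed level went from 258 to 266 CPM up to 1030 to 1103 CPM, while 7 of 9 ESC markers were lower. Primitive endoderm markers summed to 246.2 to 246.5 CPM in the NTC libraries and 372.3 to 383.4 CPM in the libraries labelled DOX, with 2 of 8 higher and 2 lower. Eomes is also a gene of the trophoblast, Cdx2 stands in both the trophectoderm and the streak list, and Tdgf1 in both the ESC marker and the signal list. With shRybp 7 of 9 trophectoderm markers were higher (sums of 121 to 132 CPM against 335 to 349 CPM) and 6 of 8 primitive endoderm markers, with 1 lower (251 to 262 CPM against 637 to 663 CPM). With shWdr5 6 of 8 trophectoderm markers were higher (275 to 289 CPM with the knockdown), and of the primitive endoderm markers 5 of 8 were higher and 3 lower (452 to 459 CPM). With shWdr5 6 of 9 ESC markers were lower and 2 higher (7520 to 7661 CPM against 6294 to 6310 CPM), with shRybp 4 were lower and 4 higher (8003 to 8147 CPM against 7218 to 7231 CPM), and in Rybp-/- cells 2 were lower and 6 higher (5848 to 5922 CPM against 6415 to 6436 CPM). Of the 8 feeder fibroblast markers, only Col1a1, Col1a2, Thy1 and Twist1 could be tested with shRybp, and all 4 were higher (27.7 to 28.2 CPM against 50.04 to 52.38 CPM). Lum and Dcn had no read in these libraries, and Col3a1 and Postn averaged 0.0230 and 0.0181 CPM. With shWdr5 1 of 4 was higher and 1 lower. Feeder markers summed to 58.6 to 59.5 CPM in Rybp+/+ and 118 to 124 CPM in Rybp-/- cells, and to 430 to 437 CPM in WT.RYBP and 347 to 371 CPM in phase disruption cells, where T fell. In TF-AA mutation cells 5 of 6 trophectoderm, 5 of 6 primitive endoderm and 3 of 4 feeder markers were higher, and with DOX in Tet on.RYBP cells 3 of 6, 0 of 6 (1 was lower) and 0 of 3. Of the 8 feeder markers, 3 had no read in any library of the TF-AA comparison and 4 had none in the Tet on.RYBP comparison. Trophectoderm markers were also higher in Rybp-/- cells (7 of 9, with sums of 163.5 to 167.5 CPM against 199.9 to 206.2 CPM) and in phase disruption cells (6 of 8), as were primitive endoderm markers (5 of 8 and 4 of 7). The part of these markers in the results was not tested.

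At the chromatin level, the study's peak lists were read at these loci. They give each peak's fold enrichment over input and hold peaks down to a -log10 q of 1.01 to 1.39. The RING1B lists of shEV and shStat3 cells and the STAT3 lists of Rybp+/+ and Rybp-/- cells rest on 1 ChIP library each, and the other 10 lists on merged replicates, so differences between lists are descriptions without a test. A promoter here is 2500 bases on either side of any annotated start site, and shares are of the 22380 protein-coding genes of the mm9 annotation. Because lists differ in depth, each peak is placed by its percentile of fold enrichment in its own list.

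RING1B peaks covered the promoters of 7 of the 9 genes, all but Tbx6 and Msgn1, in shEV cells (45.9% of all genes), in shStat3 cells (41.6%) and in DOX+ cells (41.9%). In DOX- cells they covered 8 of 9, Msgn1 included (54.7%), with a weak Msgn1 peak at percentile 26.6. The other RING1B promoter peaks ranked between percentile 82.2 and 99.4 of their lists. Gsc had the strongest, at 45.5-fold in shEV, 57.9-fold in shStat3, 60.9-fold in DOX- and 38.5-fold in DOX+ cells. At T the peak of shEV cells (chr17:8622210-8629219) was 40.7-fold enriched and 7010 bases wide, and at Evx1 the peak of DOX- cells (chr6:52259020-52274060) extended over 15041 bases and the whole gene. The median RING1B peak was 884 to 987 bases wide. Mesp1 had the lowest of these values, at 14.6-fold to 19.5-fold.

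**Figure D3:**
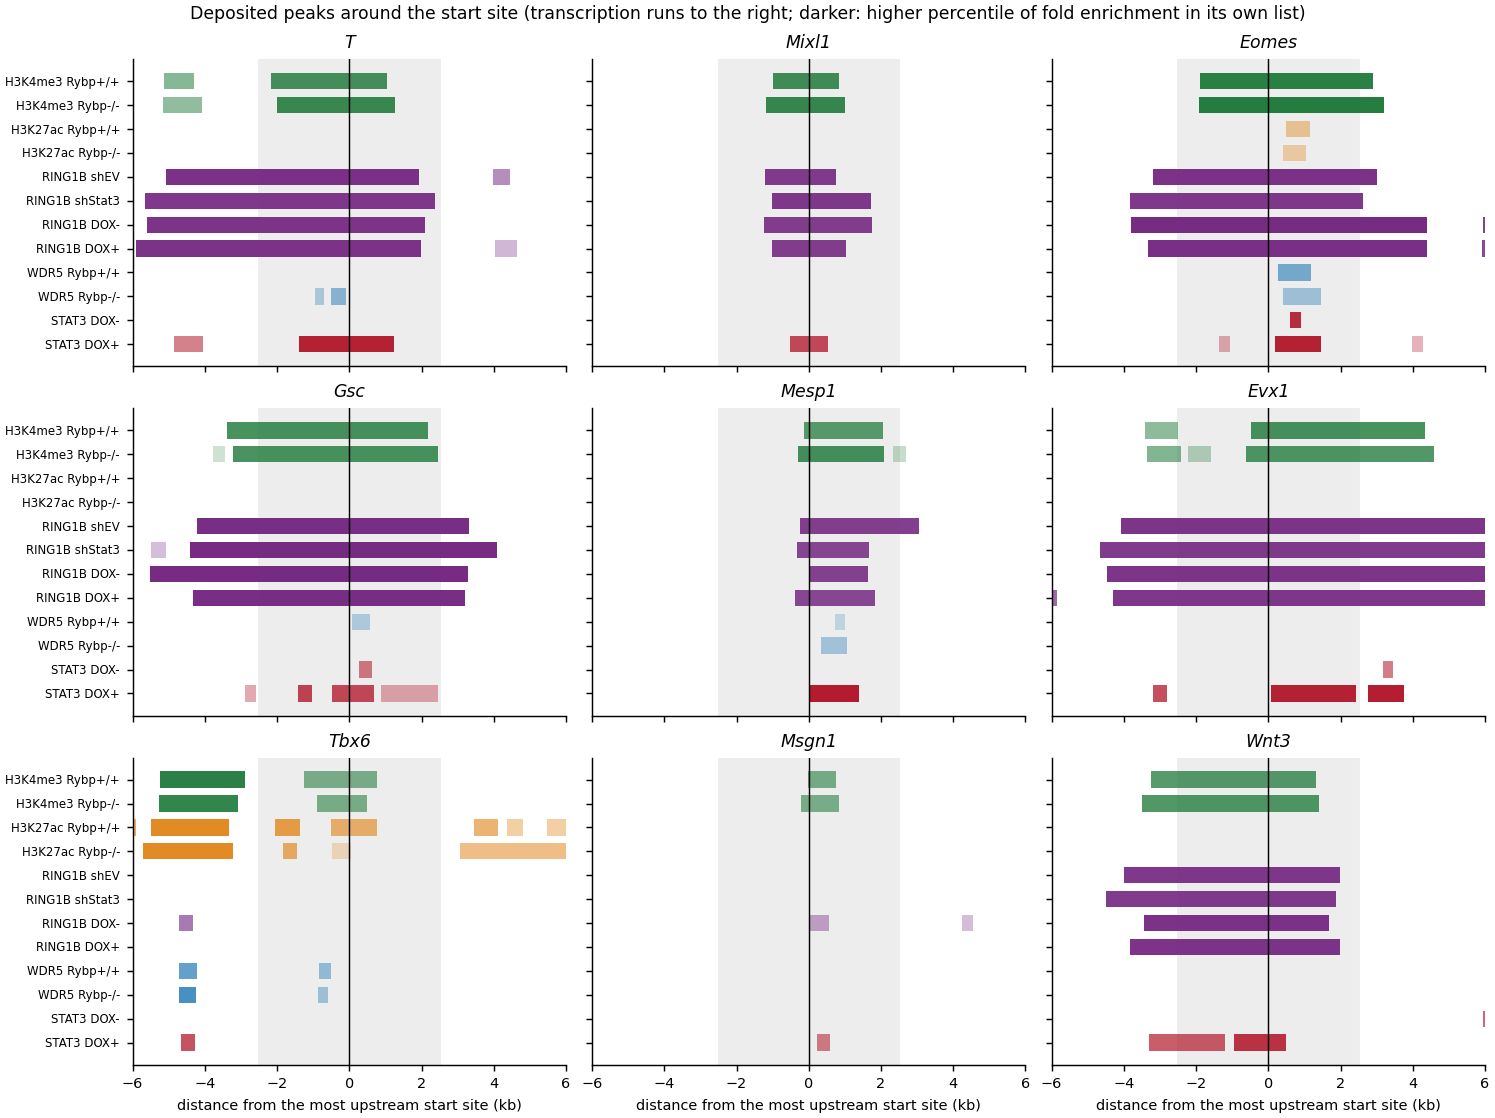
Peaks within 6 kb of the most upstream start site of each gene, drawn so that transcription runs to the right, with distance in kb on the x axis and 1 row per peak list. Bars span the deposited peaks, darker bars have a higher percentile of fold enrichment in their list, and grey shading marks 2.5 kb on either side; RING1B and H3K4me3 bars lie together at the start of 7 genes in every list, at Tbx6 the only RING1B bar lies outside the shading, Msgn1 has RING1B bars in DOX- cells alone, and H3K27ac appears at Tbx6 and Eomes.

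All 9 promoters carried an H3K4me3 peak in Rybp+/+ cells (67.8% of all genes) and in Rybp-/- cells (67.9%), from percentile 44.9 at Tbx6 to 91.6 at Eomes in Rybp+/+ cells. H3K27ac, a mark of active promoters and enhancers, was called at Eomes and Tbx6 alone, in Rybp+/+ (2 of 9, against 51.6%) and in Rybp-/- cells (2 of 9, against 54.8%). Of these, Tbx6 had the stronger peak, 5.95-fold enriched in Rybp+/+ and 4.06-fold in Rybp-/- cells (percentiles 71.1 and 55.5). Eomes had 3.36-fold and 2.98-fold (27.1 and 18.6). H3K4me3 together with RING1B of shEV cells and no H3K27ac was found at 6 of 9 genes, T, Mixl1, Gsc, Mesp1, Evx1 and Wnt3 (13.6% of all genes), with the histone lists from R7.15 cells and RING1B from R1 cells.

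Tbx6, the gene that fell in Rybp-/- RNA, was the 1 promoter with H3K27ac and without RING1B within 2500 bases in any list. A RING1B peak of DOX- cells lay further out, at -4730 to -4330 bases from the start site (5.60-fold, percentile 53.4). The H3K27ac peak of 1293 bases over the Tbx6 start site in Rybp+/+ cells (chr7:133924479-133925771, 4.17-fold, percentile 50.8) had a counterpart of 514 bases in Rybp-/- cells (2.59-fold, percentile 6.55). The other promoter peak, further upstream, was 710 bases wide in Rybp+/+ and 390 bases in Rybp-/- cells (5.95-fold and 4.06-fold). One in the gene body was 670 bases wide in Rybp+/+ and 3471 bases in Rybp-/- cells (4.12-fold and 3.50-fold), and one outside the promoter, from -5494 to -3329 bases of the start site in Rybp+/+ cells, was 16.96-fold enriched there and 14.96-fold in Rybp-/- cells (percentiles 91.4 and 91.9). The H3K4me3 peak over the start site of Tbx6 was 6.54-fold enriched in Rybp+/+ and 6.88-fold in Rybp-/- cells, and one outside the promoter, from -5243 to -2895 bases in Rybp+/+ cells, was 45.78-fold and 42.79-fold enriched.

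Between Rybp+/+ and Rybp-/- cells, the percentile of the H3K4me3 promoter peak was lower in Rybp-/- cells at 3 of 9 genes (52.8% of all genes with a peak in both lists), with a median shift of 2.96 points against -0.49 over all genes. Mesp1 moved most, from percentile 65.8 to 77.0, and T from 76.8 to 83.3. From shEV to shStat3, RING1B percentiles were lower at 5 of 7 genes (63.2% of all genes), with a median shift of -3.52 against -2.49 points. From DOX- to DOX+ they were lower at 5 of 7 genes (82.1% of all genes), with a median shift of -0.82 against -8.01 points, and the DOX+ list was shorter, with 12864 peaks against 17021. In DOX+ cells the RING1B peaks of the 7 genes lay between percentile 82.2 and 98.0.

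**Figure D4:**
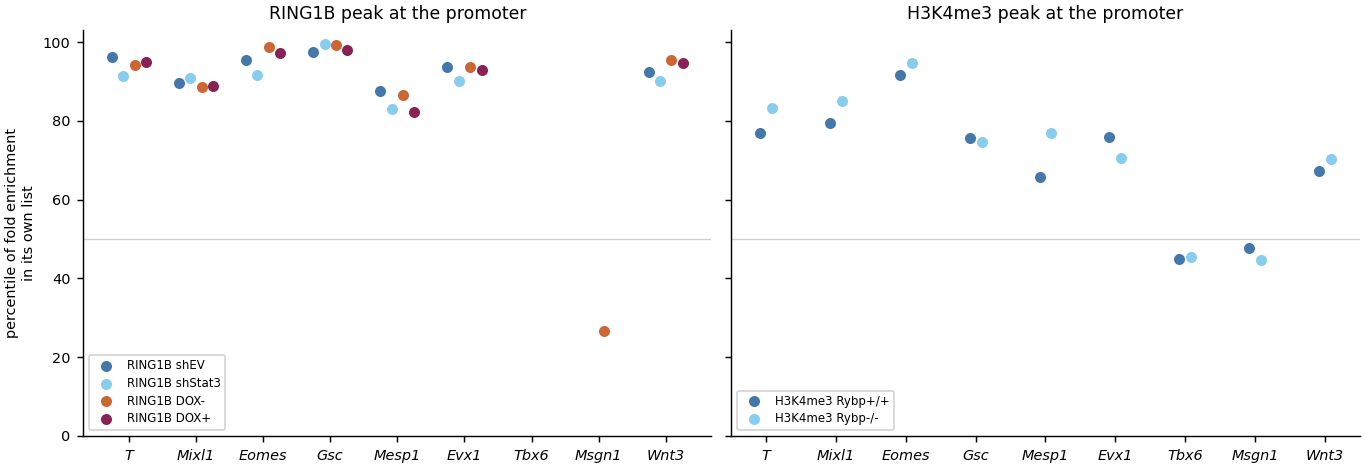
Percentile of fold enrichment of the strongest promoter peak of each gene within its own list (y axis, 0 to 100), for RING1B in 4 lists (left) and H3K4me3 in 2 lists (right). Each point is the 1 value that a list gives, from a single library (RING1B in shEV and shStat3 cells) or from merged replicates (the other lists), and a missing point means no promoter peak; RING1B points lie above 82 for 7 genes, Tbx6 has none, and H3K4me3 points of Tbx6 and Msgn1 lie below 50.

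WDR5 peaks were called at 4 of 9 promoters in Rybp+/+ cells, Eomes, Gsc, Mesp1 and Tbx6 (46.8% of all genes), and at 4 of 9 in Rybp-/- cells, T, Eomes, Mesp1 and Tbx6 (49.2%). They were weak, from 2.79-fold at Mesp1 to 5.08-fold at Eomes in Rybp+/+ cells, where the median of the list was 5.17-fold. T had peaks of 3.54-fold and 4.42-fold in the Rybp-/- list alone (percentiles 16.3 and 37.1), and Gsc was called in Rybp+/+ cells alone. Wnt3 had a WDR5 peak in Rybp-/- cells in its gene body, at chr11:103671474-103671909 (4.79-fold).

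STAT3 was called at few of these promoters in 3 of its 4 lists. It was found at Gsc in Rybp+/+ cells (1 of 9, against 7.78% of all genes), at Mixl1 in Rybp-/- cells (1 of 9, against 6.56%) and at Eomes and Gsc in DOX- cells (2 of 9, against 9.03%). In DOX+ cells it was found at 8 of 9, all but Tbx6 (57.5% of all genes), in a list of 30663 peaks against 2816 in DOX-. The strongest promoter peaks in DOX+ cells were those of Mesp1 (11.8-fold, percentile 98.2), T (9.29-fold, 95.2), Evx1 (9.21-fold, 95) and Eomes (9.15-fold, 94.9). Wnt3 had 6.77-fold (84.9), Gsc 5.78-fold (75.5), Mixl1 5.57-fold (72.6) and Msgn1 4.26-fold (43.4). The T peak (chr17:8625893-8628535) spans both T sites printed above, but the 101 bases centred on its summit (chr17:8626841) hold neither motif. Within 101 bases centred on the summit, TTCNNNGAA was found in 1 of 19 DOX+ peaks at these genes (Mixl1), against 2.12% of all peaks of the list, and in the Rybp-/- Mixl1 peak.

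The Wnt3 locus held a further strong region about 36 kb after its start site. RING1B peaks there spanned chr11:103668951-103674362 in shEV cells (22.1-fold) and were found in all 4 RING1B lists, H3K4me3 peaks spanned chr11:103670312-103673377 in Rybp+/+ cells (26.6-fold, percentile 75.0), above the 17.6-fold of the Wnt3 promoter, and the STAT3 peak of DOX+ cells at chr11:103670366-103672165 was 14.5-fold enriched (percentile 99.3), the highest STAT3 value at any of the 9 genes. No H3K27ac peak was called at the Wnt3 promoter or gene body in either genotype.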

How the data were processed

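RNA was measured in 26 distinct libraries, 2 in each of 13 groups, as the labels assign them. Per the authors' methods, reads were trimmed with Trim Galore, aligned to mm9 with STAR and counted per gene with HTSeq, and the deposited values are raw counts with, in 6 of 7 tables, a gene length. ChIP-seq reads were aligned to mm9 with Bowtie2, duplicates removed and, where there were replicates (10 of 14 lists), their alignments merged, and the deposited MACS2 lists give each peak's fold enrichment over input and -log10 q value as the authors' peak caller wrote them, so no list shows replicate spread. Counting by gene without a stated strand can mix reads of overlapping genes.

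From the counts, rows of no gene (0 to 58.5% of a table's reads) were set aside, low genes were removed by edgeR's default filter, libraries were scaled by TMM, and each comparison was fitted within its own table with edgeR 4.0.16 (quasi-likelihood test, Benjamini-Hochberg adjustment, R 4.3.3), and the procedure was tested on simulated data. DESeq2 1.42.0, RLE scaling, no filter, a fold threshold and leaving out each library were the alternatives. Total reads bound the precision, and floors of 3 reads cover counting error only. Of 37620 gene IDs, 37205 had a name in GENCODE vM1. Peaks were assigned with Python 3.11.15 where at least 1 base lay within 2500 bases of a start site. Named were all 9 genes, at most 3 genes per comparison from the lists (largest change among called genes with a mean of at least 1 CPM), the 3 genes most like any member tested in all 7 tables, and the targeted genes. The members and lists were chosen with earlier results of these data known.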

Additional observations from a re-analysis of the deposited data

How the results depend on the processing

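Under the alternatives, 105 values of called genes stayed called and 17 were not called, and no called gene changed sign. Among genes not called to begin with, 22 values changed sign. Tbx6 with shRybp became -0.02 by DESeq2 and -0.01 by RLE scaling, and Mixl1 in TF-AA mutation cells 0 by DESeq2 and -0.01 without a filter. Leaving out single libraries, with a lone library assumed to vary like the others, gave log2 fold changes with shRybp of -0.29 to 0.22 (Mixl1), -0.44 to 0.75 (Gsc) and -0.17 to 0.16 (Tbx6), in TF-AA mutation cells of -0.24 to 0.21 (Mixl1), in phase disruption cells of -0.42 to 0.67 (Mixl1), -0.37 to 0.02 (Eomes) and -0.45 to 0.11 (Evx1), and in Tet on.RYBP cells of -0.54 to 0.25 (Evx1) and -1.42 to 0.83 (Tbx6). Numbers of members called then ran from 2 to 4 with shWdr5 and 1 to 2 in Rybp-/- cells, and of all genes from 2724 to 4767 in TF-AA mutation and 406 to 1566 in Tet on.RYBP cells. DESeq2 called 1 member with shWdr5 (Wnt3), and 2903 genes in TF-AA mutation and 2630 in phase disruption cells. The causes were not tested.

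An absolute log2 fold change above 1 as an added requirement left 1 member with shRybp and 2 with shWdr5, and over all genes 2088 and 2815, 1330 in Rybp-/-, 1176 in TF-AA mutation, 986 in phase disruption, 135 in Tet on.RYBP and 1953 in rTRS cells. Halving the counts of the shRybp table, chosen after seeing the data because its shEV counts were about 2 times those of the shWdr5 table, gave 3 members (Eomes, T and Wnt3). A -log10 q of at least 5 left H3K27ac at 1 promoter in each genotype (Tbx6) and WDR5 at 2 in Rybp+/+ cells. It left STAT3 at 0 in Rybp+/+ and 1 in DOX- cells, and 5000 bases gave 2 for STAT3 in Rybp+/+ cells. These peak counts are given without the shares of all genes under the same settings. They therefore do not show whether the members changed more than other genes.

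The deviations of libraries with equal replicate numbers had correlations of 0 to 0.15, the highest in the rTRS table. These values run over all tested genes and include counting noise, so they do not settle whether such libraries shared a culture. A fit with the replicate number as a block called 2, 5, 1, 1, 1, 0 and 5 members in the shRybp, shWdr5, Rybp-/-, TF-AA mutation, phase disruption, Tet on.RYBP and rTRS comparisons, the same genes as without it, and gave Mixl1 in TF-AA mutation cells as 0 and Tbx6 in Tet on.RYBP cells as -0.16. For Tet on.RYBP and rTRS, 3 columns were given a group but not a sample, and the number in the column heading was used. Among them was the rTRS column headed S5-DOX_R2, whose prefix is in no label. Too few reads for a test were counted for Msgn1 in 7 tables, Mesp1 in 5, Gsc in 3, T, Mixl1, Tbx6 and Wnt3 in 2 each and Evx1 in 1.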
